A study of Mus musculus with 36 samples.

Results

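The matrix metalloproteinases (Mmp genes), the ADAMTS proteases and the tissue inhibitors of metalloproteinases (Timp genes) were followed through mouse reprogramming with and without Zfp266, a zinc finger protein gene. Members were chosen by symbol alone and not by any measured value, and 41 of the 21442 genes in the table carried such a symbol: 19 Mmp, 18 Adamts and 4 Timp genes. Mmp7, Mmp8, Mmp21, Mmp27 and Adamts13 were not analysed here. RNA was sequenced from 36 libraries in 12 groups of 3, given by 6 stages and 2 genotypes. The starting cells were passage 2 mouse embryonic fibroblasts (MEFs) of strain 129 from E12.5 embryos, which expressed Cas9 and carried a doxycycline-inducible cassette of the reprogramming factors Oct4, Sox2, Klf4 and Myc. Per the paper, the embryos were chimeras, made by morula aggregation with the engineered stem cell line. The share of host-derived cells without Cas9 and the cassette in the MEF samples was not tested. Wild-type (WT) MEFs and WT reprogramming cells received a non-targeting guide RNA and knockout (KO) cells a Zfp266 guide RNA by lentivirus, so the KO samples up to day 7 were edited populations and not clones. MEFs were harvested 96 h after transduction. For reprogramming, but not for the MEF samples, the cassette-bearing MEFs were mixed with a larger number of unmodified MEFs of strain 129. Reprogramming cells were taken at day 3 (D3), day 5 (D5) and day 7 (D7) in ESC medium with 300 ng/ml doxycycline and 10 ug/ml vitamin C. Cells with the transgene switched on were collected by sorting, and carry-over of the unmodified MEFs was not tested. Induced pluripotent stem cells (iPSCs) were clones lifted at day 15 and grown without doxycycline in 1 ug/ml puromycin, with 3 WT and 3 KO clones. Embryonic stem cells (ESCs) were 3 KO clones and 3 samples of their WT parental line, which itself is 1 clone, so the spread among the WT ESC libraries is that within 1 line.

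MMPs are zinc endopeptidases that are made with an inhibitory propeptide and, once it is removed, cleave collagens, proteoglycans and other proteins of the extracellular matrix. Most are secreted, whereas the membrane-type enzymes are held at the cell surface. ADAMTS proteases are secreted relatives with thrombospondin repeats, of which some cleave aggrecan and versican and others trim the ends of procollagens. TIMPs bind the active site of these enzymes and block it. Fibroblasts are a main source of these proteins in connective tissue, and reprogramming replaces the fibroblast program with that of pluripotent cells.

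Library totals ranged from 19224103 to 39610939 counts, and 3 reads, the upper limit that a count of 0 allows, corresponded to 2.31 to 5.22 normalised counts depending on the library. Normalised counts are raw counts divided by a median-ratio size factor, and a level per length is the count per exon base, scaled to the same sum in every library (TPM scale). Differences are log2 fold changes (log2FC) from a DESeq2 fit over all genes and libraries, and a member was called where the Benjamini-Hochberg FDR was < 0.05 and log2FC > |1|. Fibroblast markers summed to 3484 to 4710 on the TPM scale in MEFs and to 2.74 to 6.17 in iPSCs and ESCs, while pluripotency markers summed to 0.48 to 0.75 in MEFs and to 5332 to 7390 in iPSCs and ESCs. Zfp266 transcript was present in every library, at 1266 to 3096 normalised counts in WT and 1501 to 3293 in KO over all stages. It differed in either direction within stages, at 1531 ± 99.9 in WT and 1910 ± 122 in KO at D3 and 2647 ± 151 in WT and 2019 ± 169.8 in KO iPSCs, so its RNA level gave no check of the genotype labels. MEF KO replicate 3 stood apart. Among the 37 members with a mean of at least 10 normalised counts in the other 5 MEF libraries, it was over 2-fold below all of them for 10 and over 2-fold above for 3, which is 27.0% and 8.11% of members beside 6.10% and 1.65% of 17180 genes. Its epithelial markers summed to 19.3, beside 85.1 to 130.2 in the other MEF libraries.

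MEFs had by far the most transcript of the family. Members took 0.375% to 0.429% of all counts in MEFs, 0.029% to 0.052% from D3 to D7 and 0.012% to 0.017% in iPSCs and ESCs. Per length, the 19 Mmp genes summed to 1658 ± 28.6 (TPM scale, mean ± SD, n = 3) in WT MEFs and to 60.3 ± 8.097 at D3, and the 18 Adamts genes to 214 ± 7.37 and 33.4 ± 4.32. The 4 Timp genes summed to 1076 ± 3.03 in WT MEFs, 267 ± 33.9 at D3 and 207 ± 42.8 at D7, and then to 23.2 ± 1.97 in iPSCs and 20.6 ± 0.985 in ESCs. Most of the protease level and most of the inhibitor level were thus lost before D3, and most of the inhibitor level that remained at D3 was lost after D7. The ratio of summed inhibitor to summed protease transcript was 0.575 ± 0.0123 in WT MEFs, 2.85 ± 0.0625 at D3, 3.36 ± 0.161 at D5, 2.54 ± 0.246 at D7, 0.441 ± 0.043 in iPSCs and 0.44 ± 0.0642 in ESCs. The 3 WT libraries of each reprogramming day lay above all 3 of MEFs, iPSCs and ESCs in this ratio. In bulk RNA, fewer cells of a type and less RNA per cell cannot be told apart. The sorted D3 cells differed from MEFs in sorting, medium and mixing with unmodified MEFs as well as in time.

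**Figure D1:**
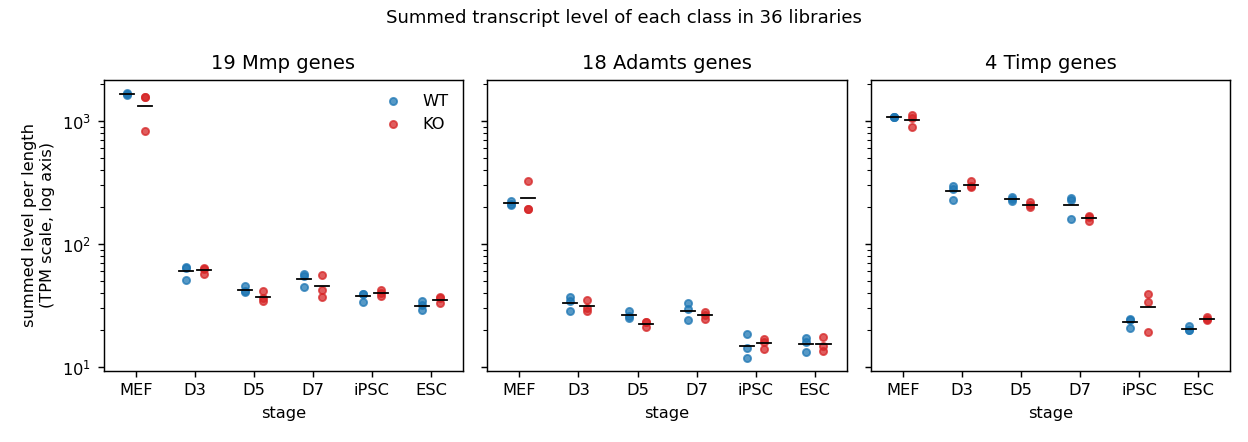
Summed level per length (TPM scale, log axis) of the 19 Mmp, 18 Adamts and 4 Timp genes at 6 stages, with 1 point per library (blue WT, red KO) and a bar at the mean of 3. The sums of all 3 classes dropped between MEFs and D3. The Timp sum was 888 to 1127 in MEF libraries and 155 to 322 in D3 to D7 libraries, and fell again to 19.3 to 39.4 in iPSCs and ESCs.

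Between WT MEFs and WT D3 cells, 31 of 41 members were lower and 4 were higher, with 25.4% and 19.5% of all tested genes called in the same directions. The median log2FC over members was -3.04, beside -0.01 over all tested genes. The 4 called higher were Mmp24, Mmp20, Adamts18 and Adamts19. For Mmp20 the WT D3 mean of 2.87 normalised counts was below the floor of 3 reads in WT MEFs (4.32), so no fold is given. For Mmp24 the WT MEF and WT D3 libraries overlapped. The number called higher was 3 with a mean of at least 10 counts and in the fit of only the groups compared. It was also 3 without MEF WT replicate 1, 2 or 3 or D3 WT replicate 3. Of the 40 members with reads in WT MEFs, 19 were below 10% of their MEF level at D3 and 6 were below 1%, while 6 were above it. In D5 against D3, 1 member was higher and 4 were lower (4.94% and 1.84% of genes), and in D7 against D5, 5 were higher and 2 were lower (4.74% and 1.07%). From D7 to iPSCs 9 rose and 24 fell (20.0% and 25.0%), with a median of -2.14, or -1.62 with the 5 members that had no read in the iPSCs set at their bound. ESCs and iPSCs did not differ by any call (0 of 41, with 0.126% and 0.150% of genes called; 24 members had an FDR), and 4 members had an unadjusted p < 0.05 in DESeq2 and 4 in edgeR. In WT ESCs against WT MEFs 34 members were lower and 2 were higher (29.4% and 26.0% of genes), with a median of -4.90, or -4.80 with 7 members set at their bound, beside 0.05 over all genes. Size factors by TMM moved the median of all genes in that comparison to 0.16. The stage with the highest mean was the MEF stage for 33 members, D3 for Adamts3, Adamts18, Adamts19 and Adamts20, D5 for Mmp20, D7 for Adamts16 and ESCs for Mmp24 and Mmp25. The stage of highest mean and the percentage of the MEF level were not counted over all genes, so these counts describe the members only.

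**Figure D2:**
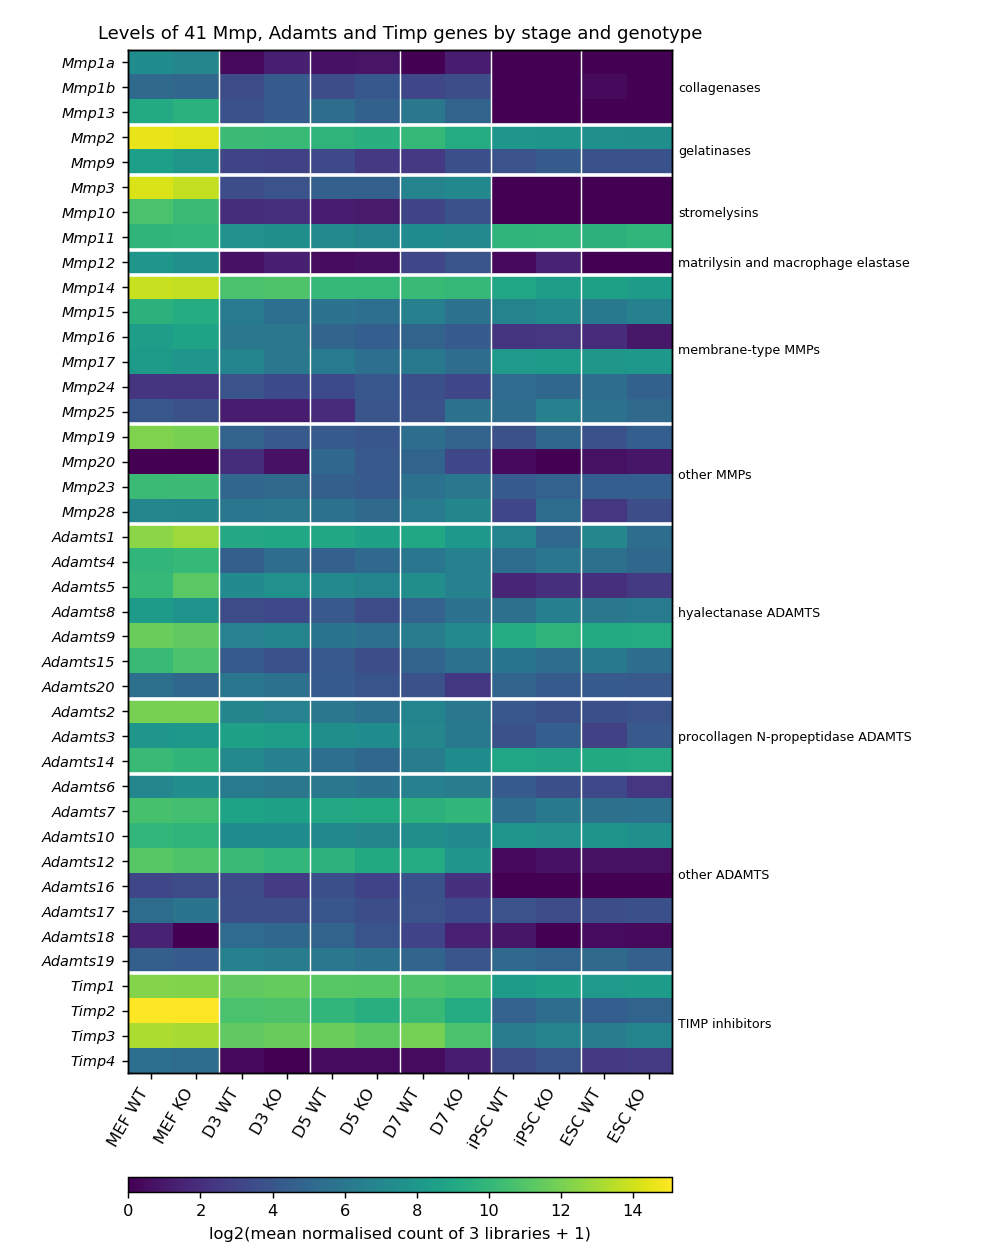
Mean level of each of the 41 genes, as log2 of the mean normalised count of 3 libraries plus 1, in 12 groups ordered by stage and genotype and grouped by role. Among the 6 WT columns that of MEFs is the brightest for 33 genes, and the stromelysins Mmp3 and Mmp10 go from high levels in MEFs to 0 in iPSCs and ESCs.

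Mmp3 and Mmp10, the members with the largest fitted fall from WT MEFs to WT ESCs, lie in a gene cluster. Mmp13, Mmp12, Mmp1b, Mmp3, Mmp1a, Mmp10 and Mmp20 lie within 402 kb of chromosome 9 (GRCm38, 7272514 to 7674979), and all but Mmp20 fell between MEFs and D3. Upstream sequences of these 7 genes are printed here because 6 of them share a short motif that Mmp20 lacks. A link of the motif to the fall at D3, in which 31 of 41 members were lower, was not tested. Each line gives the 120 bases before a RefSeq transcription start (GRCm38.p6, on the strand of the gene), and capitals mark the AP-1 motif TGACTCA (or its reverse complement TGAGTCA) and TATAAA, which do not overlap each other here.
Mmp13 (chr9:7272394-7272513, plus strand): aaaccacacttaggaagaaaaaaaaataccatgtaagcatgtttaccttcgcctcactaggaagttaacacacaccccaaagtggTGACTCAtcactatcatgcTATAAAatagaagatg
Mmp12 (chr9:7347254-7347373, plus strand): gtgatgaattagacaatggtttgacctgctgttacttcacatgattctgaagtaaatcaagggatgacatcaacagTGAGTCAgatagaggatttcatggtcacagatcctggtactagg
Mmp1b (chr9:7388027-7388146, minus strand): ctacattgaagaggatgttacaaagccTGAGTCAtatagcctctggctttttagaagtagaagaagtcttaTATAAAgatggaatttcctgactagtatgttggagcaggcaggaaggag
Mmp3 (chr9:7445702-7445821, plus strand): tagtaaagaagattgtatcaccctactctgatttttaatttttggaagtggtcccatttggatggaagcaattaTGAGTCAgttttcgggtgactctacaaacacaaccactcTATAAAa
Mmp1a (chr9:7464021-7464140, plus strand): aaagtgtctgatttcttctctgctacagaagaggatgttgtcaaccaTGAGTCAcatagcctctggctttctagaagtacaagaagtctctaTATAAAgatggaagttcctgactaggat
Mmp10 (chr9:7502222-7502341, plus strand): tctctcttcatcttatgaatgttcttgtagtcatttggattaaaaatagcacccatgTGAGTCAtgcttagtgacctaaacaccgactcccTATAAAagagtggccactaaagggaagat
Mmp20 (chr9:7628111-7628230, plus strand): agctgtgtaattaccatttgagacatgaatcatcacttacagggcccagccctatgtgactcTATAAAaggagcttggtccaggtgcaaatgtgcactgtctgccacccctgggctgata

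In the 250 bases before the start, the AP-1 letters were searched on both strands and occurred in 4.46% of 32851 RefSeq promoters. RefSeq held a promoter for 27 of the 41 members, and the 6 with the letters were the 6 cluster genes other than Mmp20, with the first base of the motif 35 bases before the start in Mmp13, 46 in Mmp3, 63 in Mmp10, 73 in Mmp1a and 93 in Mmp1b. In Mmp12 that base was 44 bases before the downstream of its 2 starts and the letters were not in the 120 bases before the upstream one. TATAAA on either strand occurred in 12.4% of all promoters and in 7 members, namely Adamts1 and the cluster genes other than Mmp12. A match of letters is a description of the sequence and no evidence of binding.

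Mmp3 encodes stromelysin-1, which cleaves many matrix proteins and activates other MMPs. It had 19717, 18449 and 18731 normalised counts in the 3 WT MEF libraries, 13.8, 5.00 and 13.6 at D3, 8.74, 26.8 and 36.4 at D5 and 152, 88.6 and 77.2 at D7. All WT D3 libraries were below all D7 libraries, and no read was found in the WT iPSCs or ESCs. Per length it was the highest member in WT MEFs at 724 ± 20.1 (TPM scale) and made up 24.6% of the summed level. It fell by 10.78 on the log2 scale from MEFs to D3 (SE 0.88, FDR = 2.16e-33), and was at least 6574-fold lower in ESCs than in MEFs when a floor of 3 reads per library stands for 0. The neighbouring stromelysin-2 gene Mmp10 had 1793, 1778 and 1689.6 in WT MEFs, 0.917, 3.0002 and 4.85 at D3, 1.94, 2.06 and 0 at D5 and 4.06, 12.1 and 7.202 at D7. It had no read in WT ESCs, at least 608-fold below MEFs, and it rose again between D5 and D7 (log2FC 2.53, SE 0.92, FDR = 0.0290). Mmp12, the macrophage elastase, likewise rose from 0, 1.03 and 0 at D5, which is 1 read in all, to 3.04, 8.06 and 13.4 at D7 (FDR = 0.00549), a ratio of 23.7 with a 95% counting interval of 4.26 to 937. Macrophage markers (5 of 8 in the table) summed to 8.06 to 9.69 in WT D5 and 15.2 to 19.6 in WT D7 libraries, and their part in this rise was not tested.

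The collagenases, which make the initial cut in fibrillar collagen, followed the stromelysins. Mmp13, the main rodent collagenase, went from 602 ± 45.7 in WT MEFs to 13.1 ± 2.23 at D3 and 61.0 ± 9.05 at D7, and was without reads in the WT iPSCs and ESCs, at least 209-fold below MEFs. Mmp1a was at 158 ± 23.7 in WT MEFs and below 1 normalised count in mean at D3, D5 and D7, whereas its close relative Mmp1b was at 36.6 ± 2.84 and 10.3 ± 2.35 in MEFs and D3. Both are uncertain, because these near copies can exchange reads and 10.8% of the Mmp1b exon bases overlap Mmp12 on the other strand. Mmp20, the enamel protease at the end of the cluster, had no read in any of the 6 MEF libraries and 24.3, 25.8 and 44.8 in WT D5 libraries, above all WT D3 libraries (1.83, 0 and 6.78; log2FC 3.46, SE 0.91, FDR = 0.00130). It was at 11.2, 29.2 and 44.2 at D7 and at most 1.74 in WT iPSCs and ESCs.

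**Figure D3:**
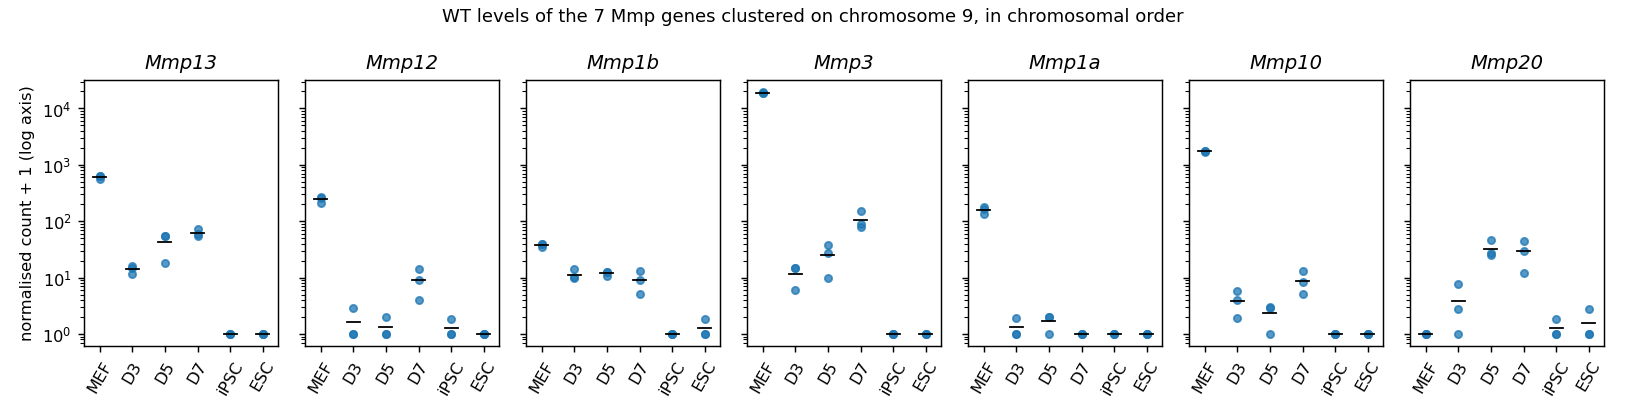
Normalised counts plus 1 (log axis) of the 7 genes of the chromosome 9 cluster in the 3 WT libraries of each stage, with 1 panel per gene in genomic order, points for libraries and a short bar at each stage mean. Mmp3 and Mmp10 sit at the top in MEFs and at no more than 13.8 normalised counts at D3, and Mmp20 is seen mainly at D5 and D7.

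The gelatinase Mmp2, which degrades type IV collagen, and the membrane-type enzyme Mmp14, which activates it, were among the 5 highest members per length in both WT MEFs and WT ESCs. Mmp2 had 23939.6, 24599 and 24509.7 normalised counts in WT MEFs, 1288, 1195 and 1374 at D3, 941, 857 and 893 at D5, 1129, 974 and 1110.2 at D7, 317, 205 and 204 in iPSCs and 162, 200.4 and 215 in ESCs. It fell from MEFs to D3 (log2FC -4.24, SE 0.13, FDR = 1.32e-240) and from D7 to iPSCs (log2FC -2.14, SE 0.14, FDR = 8.44e-54), with no overlap between those groups. Mmp14 had 14498, 14554 and 14353 in WT MEFs, 1793, 1568 and 1916 at D3, 1123, 1220.4 and 1273 at D7 and 379.6, 369 and 393 in ESCs, or 12.2% and 2.63% of its MEF mean at D3 and in ESCs. The other gelatinase, Mmp9, fell from 366 ± 37.4 in MEFs to 8.03 ± 0.866 at D3 (log2FC -5.51, SE 0.64, FDR = 2.00e-17).

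In the Mmp class, Mmp24 and Mmp25 had more transcript in WT ESCs than in MEFs, Mmp11, Mmp17 and Mmp20 were not called, and the other 14 were lower. Mmp11, stromelysin-3, which is activated inside the cell by furin, had 922, 1003 and 903 in WT MEFs, 185, 186 and 229 at D3, 132, 205 and 153 at D7, 747, 1026 and 877 in iPSCs and 820.4, 841 and 846 in ESCs. It fell between MEFs and D3 (log2FC -2.24, SE 0.13, FDR = 1.06e-67) and rose between D7 and iPSCs (log2FC 2.43, SE 0.13, FDR = 6.70e-77), so that ESCs and MEFs differed by log2FC -0.17 (95% interval -0.40 to 0.06). In ESCs Mmp11 was 18.7 ± 1.07 per length (TPM scale), next to Timp1 at 19.5 ± 1.19, with Adamts14 at 6.96 ± 0.856, Mmp14 at 3.96 ± 0.264 and Mmp2 at 3.55 ± 0.649 following. Timp1 and Mmp11 did not differ beyond their spread, nor did Mmp14 and Mmp2. Mmp24, a transmembrane enzyme best known from neurons, rose from 3.48, 4.54 and 3.18 in WT MEFs to 43.2, 48.6 and 37.3 in ESCs with no overlap (log2FC 3.54, SE 0.60, FDR = 6.29e-09), although 13.6% of its exon bases overlap a gene on the other strand. Mmp25, which is anchored by a lipid and known from leukocytes, had 15.7, 13.6 and 18.04 in WT MEFs, 0.917, 1.00 and 1.94 at D3 and 39.2, 45.6 and 65.1 in ESCs (log2FC 1.65, SE 0.47, FDR = 5.80e-04). Mmp17, the other lipid-anchored enzyme, was at 292 ± 20.1, 67.2 ± 21.1 and 255 ± 20.8 in MEFs, D7 cells and ESCs, and rose from D7 to iPSCs (log2FC 2.07, SE 0.26, FDR = 1.54e-14).

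Among the 7 hyalectanases, the ADAMTS enzymes that cut aggrecan and versican, 6 fell between WT MEFs and D3 and all 7 were lower in WT ESCs than in MEFs, with medians of -4.92 and -4.12. Adamts1 went from 5838, 5786 and 5546 in WT MEFs to 638, 508 and 473 at D3, 591, 451 and 490.3 at D5, 547, 487 and 539 at D7, 82.9, 130.03 and 117 in iPSCs and 127, 117 and 133 in ESCs. Adamts9 went from 3144 ± 92.6 in MEFs to 80.5 ± 24.01 at D7 and back to 627 ± 103 in iPSCs (log2FC 2.96, SE 0.29, FDR = 5.36e-24). Adamts20 did not share the fall at D3 (log2FC 0.36, FDR = 0.390) and dropped between D3 and D5 instead (log2FC -1.61, SE 0.39, FDR = 3.44e-04).

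The procollagen N-propeptidases, which remove the amino-terminal ends of fibrillar procollagens, took 3 different courses. Adamts2 fell from 4092 ± 112 in WT MEFs to 117 ± 37.1 at D3 and 11.9 ± 3.797 in ESCs. Adamts3 was higher at D3 (396 ± 23.9) than in MEFs (244 ± 11.4; log2FC 0.70, SE 0.20, FDR = 7.30e-04), short of the 2-fold limit, and then fell to 185 ± 34.5 at D5 and 6.45 ± 4.31 in ESCs. Adamts14 had 1198, 1198 and 1162 in WT MEFs, 131, 117 and 154 at D3, 65.04, 29.9 and 40.6 at D5, 85.2, 108 and 56.6 at D7, 323, 361 and 734 in iPSCs and 522, 625 and 600.2 in ESCs. It was lowest at D5 and rose from D7 to iPSCs without overlap (log2FC 2.51, SE 0.30, FDR = 2.53e-16). Adamts12, which cuts the cartilage oligomeric matrix protein, stayed at 52.1% of its MEF mean at D3 and 26.9% at D7, with 2200.04, 2342 and 2269 in WT MEFs, 1074, 1182 and 1296 at D3, 709, 806 and 1083 at D5 and 525, 565 and 739.8 at D7. The WT iPSC libraries had 0, 0 and 0.928 and the WT ESC libraries 0, 1.01 and 0.869, which are 1 and 2 reads in all. The ratio of WT D7 cells to WT iPSCs was 1972, with a 95% counting interval of 354 to 77905 (FDR = 2.48e-19), and that of WT MEFs to WT ESCs 3621, with an interval of 1002 to 29901 (FDR = 2.07e-29). Adamts18 and Adamts19 were higher at D3 (38.03 ± 13.7 and 99.6 ± 21.96) than in WT MEFs (1.72 ± 1.55 and 23.2 ± 10.1), and were again lower at D7 than at D5 (log2FC -1.93 and -1.08).

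The remaining members are given by their mean in WT MEFs, at D7 and in ESCs. Mmp19 went from 4621 ± 79.8 to 41.9 ± 15.9 and 13.04 ± 0.93 normalised counts, Mmp23 from 1225 ± 86.1 to 48.7 ± 15.1 and 21.6 ± 6.02, and Mmp28 from 124 ± 5.58 to 73.9 ± 21.3 and 4.13 ± 1.01. Mmp15 and Mmp16, the other transmembrane enzymes, went from 820.05 ± 11.1 and 356 ± 13.5 in MEFs to 92.3 ± 23.7 and 26.3 ± 12.3 at D7 and 68.4 ± 14.1 and 2.75 ± 2.62 in ESCs. All 5 were lower in ESCs than in MEFs. Of the hyalectanases, Adamts4 had 988 ± 59.8, 58.9 ± 4.78 and 46.1 ± 4.298, and Adamts5, a main aggrecanase of cartilage, 1097 ± 38.7, 176 ± 12.4 and 3.12 ± 1.84. Adamts8 had 316 ± 10.3, 25.8 ± 9.30 and 63.2 ± 11.8, and its neighbour Adamts15 1161 ± 51.4, 28.1 ± 18.9 and 66.9 ± 19.3. Adamts7, which like Adamts12 cuts the cartilage oligomeric matrix protein, kept 50.4% of its MEF mean at D7 (1655 ± 50.9 and 835 ± 157) and had 46.8 ± 10.3 in ESCs (log2FC -4.36, SE 0.23, FDR = 8.44e-77 from D7 to iPSCs). Adamts10, linked to fibrillin microfibrils, had 1005 ± 116, 173 ± 23.1 and 225 ± 18.4, and its relative Adamts6 125 ± 16.8, 95.3 ± 14.98 and 9.096 ± 2.71. Adamts16 and Adamts17 were low throughout, with 8.08 ± 6.58 and 39.5 ± 11.1 in MEFs and 12.9 ± 5.71 and 13.6 ± 2.11 at D7, and Adamts16 had no read in the WT iPSCs or ESCs. Adamts4, Mmp23, Mmp10, Mmp12 and Mmp25 were the 5 members that rose from D5 to D7, with log2FC 1.34 for Adamts4 and 1.11 for Mmp23.

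All 4 inhibitors were lower in WT ESCs than in WT MEFs. Timp1, a secreted inhibitor of most soluble MMPs, had 4929, 4839 and 4987 in WT MEFs, 2682, 2561 and 2734 at D3, 2236, 2341 and 2381 at D5, 1798, 2082 and 2028 at D7, 297, 267 and 324 in iPSCs and 312, 271 and 258 in ESCs. Its change at D3 passed the FDR but not the 2-fold limit (log2FC -0.89, SE 0.14, FDR = 7.19e-10), and per length it held 58.9% of the summed level of all members at D3, 61.4% at D5 and 52.8% at D7, beside 12.9% in MEFs. Timp2, which also takes part in the activation of Mmp2 by Mmp14, had 35463, 33435 and 35220.3 in WT MEFs, 2047, 1365 and 1666 at D3, 1038, 993 and 919 at D5 and 1199.9, 1277 and 1164 at D7, and then 43.2, 12.9 and 22.3 in iPSCs and 16.1, 20.2 and 29.5 in ESCs. It dropped at both steps, by log2FC -4.36 from MEFs to D3 (FDR = 4.24e-75) and -5.54 from D7 to iPSCs (FDR = 9.72e-85). Timp3 binds the matrix and also blocks ADAM and ADAMTS enzymes. It had 9593, 9843 and 9902 in WT MEFs, 3209, 2140.1 and 2715 at D3, 3144, 3371 and 3496 at D5, 3164, 4448 and 4307 at D7, 64.8, 68.9 and 105 in iPSCs and 71.3, 78.96 and 97.3 in ESCs, so the WT D3 to D7 libraries all lay above all iPSC and ESC libraries (log2FC -1.86 at D3 and -5.65 from D7 to iPSCs). Timp4, known mainly from heart and fat, had 26.1, 54.5 and 52.0 in WT MEFs, at most 1 read in any WT library from D3 to D7, 11.2, 6.03 and 12.1 in iPSCs and 3.01, 4.05 and 6.95 in ESCs.

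The effect of Zfp266 KO on the family was read at each stage against the WT group of that stage. In MEFs no member was called in either direction (0.0143% of genes were called higher and 0.00476% lower), with 2 members at an unadjusted p < 0.05 in DESeq2 and 3 in edgeR, and the count was again 0 without MEF KO replicate 3. That library had 3859 normalised counts of Mmp3, beside 18073 to 19717 in the other 5 MEF libraries, and 5320 of Adamts5, beside 945 to 1142. At D3 no member was called either (0.119% and 0.0437% of genes; 33 members had an FDR), with 2 at an unadjusted p < 0.05 in DESeq2 and 3 in edgeR. Without D3 WT replicate 1, Adamts4 was called (log2FC 1.15). At D5 Mmp25 alone was called, as higher (0.808% of genes called higher and 0.379% lower). It had 3.88, 3.096 and 1.04 in WT and 10.5, 14.7 and 18.5 in KO libraries, which did not overlap (log2FC 2.44, SE 0.67, FDR = 0.00722), and the FDR was 0.0799 without D5 WT replicate 3. Adamts12 passed the FDR alone at D5 (log2FC -0.58, SE 0.18, FDR = 0.0268), with an FDR of 0.0615 with edgeR, 0.302 without D5 WT replicate 3, 0.197 without D5 KO replicate 2 and 0.132 without D5 KO replicate 1. Fibroblast marker sums at D5 were 161 to 212 in KO and 211 to 243 in WT libraries, and pluripotency marker sums 196 to 232 and 138 to 147 (TPM scale), and their part in these results was not tested.

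At D7, KO cells had less transcript of Timp3, Adamts12, Adamts1 and Adamts20 than WT cells and more of Mmp25. These were 4 of 41 members called lower and 1 called higher, which is 9.76% and 2.44% of members beside 4.42% and 3.95% of all genes. By the FDR alone 9 were lower and 4 higher, or 22.0% and 9.76% of members beside 16.1% and 13.3% of genes. The median log2FC over members was -0.28, beside -0.04 over all genes. Members took 0.040% to 0.047% of all counts in WT and 0.029% to 0.033% in KO libraries. The same KO libraries had lower fibroblast marker sums (83.4 to 218 against 237 to 328 in WT, TPM scale, 10 of 10 markers in the table and none at 0) and higher pluripotency marker sums (1516 to 2014 against 208 to 485, 9 of 9). The endothelial list (6 of 6) was also higher, at 52.5 to 55.8 against 17.98 to 28.7 with 1 marker at 0 in all WT libraries, and the macrophage list (5 of 8) at 26.2 to 29.4 against 15.2 to 19.6, whereas epithelial sums overlapped. ESC lines also had transcript of these 2 lists. The endothelial list was at 18.4 to 22.9 in WT and 27.0 to 32.9 in KO ESCs, below the D7 KO libraries. The macrophage list was at 11.8 to 16.1 in WT and 15.7 to 33.4 in KO ESCs. Whether the 2 lists mark those cell types here was not tested. The part of the marker differences in the changes of the family was not tested.

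**Figure D4:**
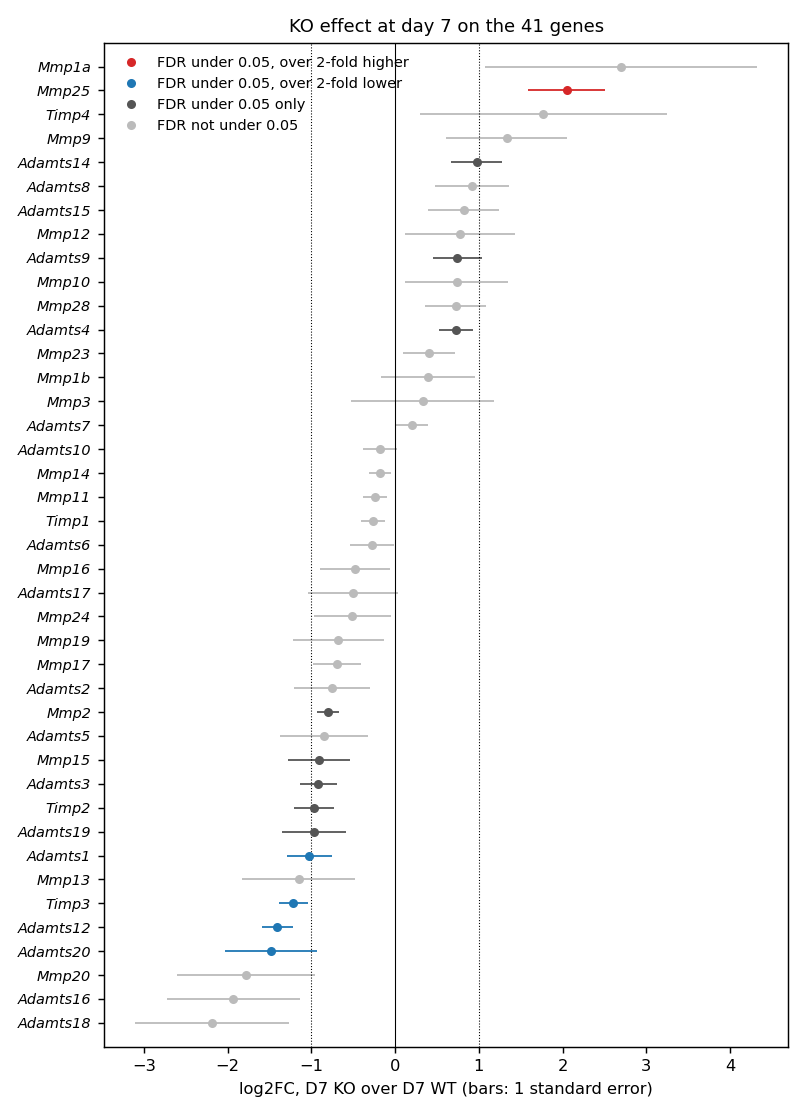
KO against WT log2FC at D7 for each of the 41 genes, ordered by log2FC, with bars of 1 standard error. Red and blue mark genes called higher and lower, dark grey those that passed the FDR alone and light grey the rest. Timp3, Adamts12, Adamts1 and Adamts20 lie below -1 and Mmp25 above 1, and genes of low count such as Mmp1a and Timp4 have wide bars.

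Timp3 had 3164, 4448 and 4307 normalised counts in WT and 1689, 1819.9 and 1627 in KO libraries at D7. Every KO library was below every WT library (log2FC -1.21, SE 0.18, FDR = 2.54e-10), and the difference was 0.16 at D3 and -0.45 at D5. The change from D3 to D7 in the KO effect itself was -1.38 (FDR = 4.21e-06). Of the Timp3 exon bases 21.3% overlap Syn3 on the other strand, and whether counting used the strand is not given in the sources used here. Timp2 had 1199.9, 1277 and 1164 in WT and 808, 651 and 398 in KO libraries, again without overlap but short of the 2-fold limit (log2FC -0.97, SE 0.24, FDR = 3.82e-04). Its KO effect differed between D7 and D3 by -1.10 (FDR = 0.0134), and the FDR of that difference was 0.0517 when D3 WT replicate 2 was left out and 0.0515 when D3 KO replicate 2 was. Timp1 had 1798, 2082 and 2028 in WT and 1632, 1724 and 1559 in KO libraries, a log2FC of -0.27 with a 95% interval of -0.54 to 0.01 (FDR = 0.153). Of the 4 inhibitors 1 was called lower at D7, beside 4.42% of all genes. Without the 2-fold limit 2 were lower by the FDR, Timp3 included, beside 16.1% of genes. The median log2FC of the 4 was -0.62.

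Adamts12 had 525, 565 and 739.8 in WT and 185, 209 and 296 in KO libraries at D7. The groups did not overlap (log2FC -1.41, SE 0.19, FDR = 4.45e-12), and the KO effect changed by -1.21 between D3 and D7 (FDR = 1.85e-04). Mmp2 went from 1129, 974 and 1110.2 in WT to 740.03, 572 and 536 in KO libraries. No KO library reached the lowest WT library (log2FC -0.80, SE 0.13, FDR = 3.45e-08), and the effect differed from that at D3 by -0.69 (FDR = 0.00363). For Mmp14 the D7 values were 1123, 1220.4 and 1273 in WT and 1050.3, 1120.5 and 1014 in KO libraries, a log2FC of -0.18 (95% interval -0.44 to 0.07). Adamts3 was lower in KO by the FDR alone (126 ± 25.8 in WT and 66.9 ± 11.96 in KO; log2FC -0.92, SE 0.22, FDR = 2.86e-04).

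Hyalectanases moved in both directions at D7, with 2 of 7 called lower and 0 called higher, beside 4.42% and 3.95% of all genes. Without the 2-fold limit the same 2 were lower by the FDR and 2 were higher, beside 16.1% and 13.3% of genes. The median log2FC of the 7 was 0.72, opposite in sign to the calls. Adamts1 had 547, 487 and 539 in WT and 289, 218 and 267 in KO libraries, without overlap (log2FC -1.02, SE 0.27, FDR = 0.00116). It is at the edge of the 2-fold limit, and with edgeR its log2FC was -0.99 (FDR = 0.00473). Adamts20 had 14.2, 8.06 and 14.4 in WT and 9.04, 0.875 and 3.63 in KO libraries. These groups overlapped (log2FC -1.48, SE 0.55, FDR = 0.0288), and the FDR was 0.234 without D7 KO replicate 2, 0.0972 without D7 WT replicate 3, 0.0948 without D7 KO replicate 3 and 0.0889 without D7 WT replicate 1. Adamts4 and Adamts9 were higher in KO by the FDR alone (log2FC 0.72 and 0.74, FDR = 0.00209 and 0.0413). For Adamts9 the FDR was 0.0638 with edgeR, 0.244 without D7 WT replicate 3, 0.236 without D7 KO replicate 1, 0.108 without D7 KO replicate 2 and 0.0797 without D7 WT replicate 2.

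Mmp25 was called higher in KO cells at 3 consecutive stages. At D7 it had 6.09, 16.1 and 14.4 in WT and 60.2, 56.9 and 34.5 in KO libraries, so the lowest KO library was above the highest WT library (log2FC 2.05, SE 0.46, FDR = 8.96e-05). Adamts14 had 85.2, 108 and 56.6 in WT and 165, 158 and 168 in KO libraries, also without overlap, and was just short of the 2-fold limit (log2FC 0.97, SE 0.30, FDR = 0.00709). Without D7 WT replicate 3 that FDR was 0.0828. Its KO effect at D3 was -0.46, and the difference between D7 and D3 was 1.44 (FDR = 0.0114), with an FDR of 0.0597 without D7 WT replicate 3. In all, the KO effect differed between D7 and D3 by the call for 1 member upwards (Adamts14) and 3 downwards (Adamts12, Timp2 and Timp3), with 1.93% and 2.19% of genes called, and for Mmp2 by the FDR alone.

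The D7 KO effect and the WT step from D7 to iPSCs share the WT D7 libraries, so their values are only set side by side. Of the 9 members lower in KO at D7 by the FDR, Timp3, Adamts1, Timp2, Mmp2 and Adamts3 had a WT step of log2FC -5.65, -2.25, -5.54, -2.14 and -3.35, and Adamts12 fell to 1 read in the WT iPSCs. The other 3 had no call downwards at that step. Adamts20 was higher in WT iPSCs than at D7 (log2FC 1.28), and Mmp15 and Adamts19 were at 0.20 (95% interval -0.50 to 0.91) and 0.29 (95% interval -0.39 to 0.97). The KO effects of Mmp15 and Adamts19 at D7 were -0.91 (FDR = 0.0480) and -0.97 (FDR = 0.0404), and they passed the FDR in only 2 and 3 of 6 fits that left out 1 D7 library. Of the 4 members higher in KO, Mmp25, Adamts14 and Adamts9 had a WT step of 1.72, 2.51 and 2.96 and Adamts4 one of -0.56.

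**Figure D5:**
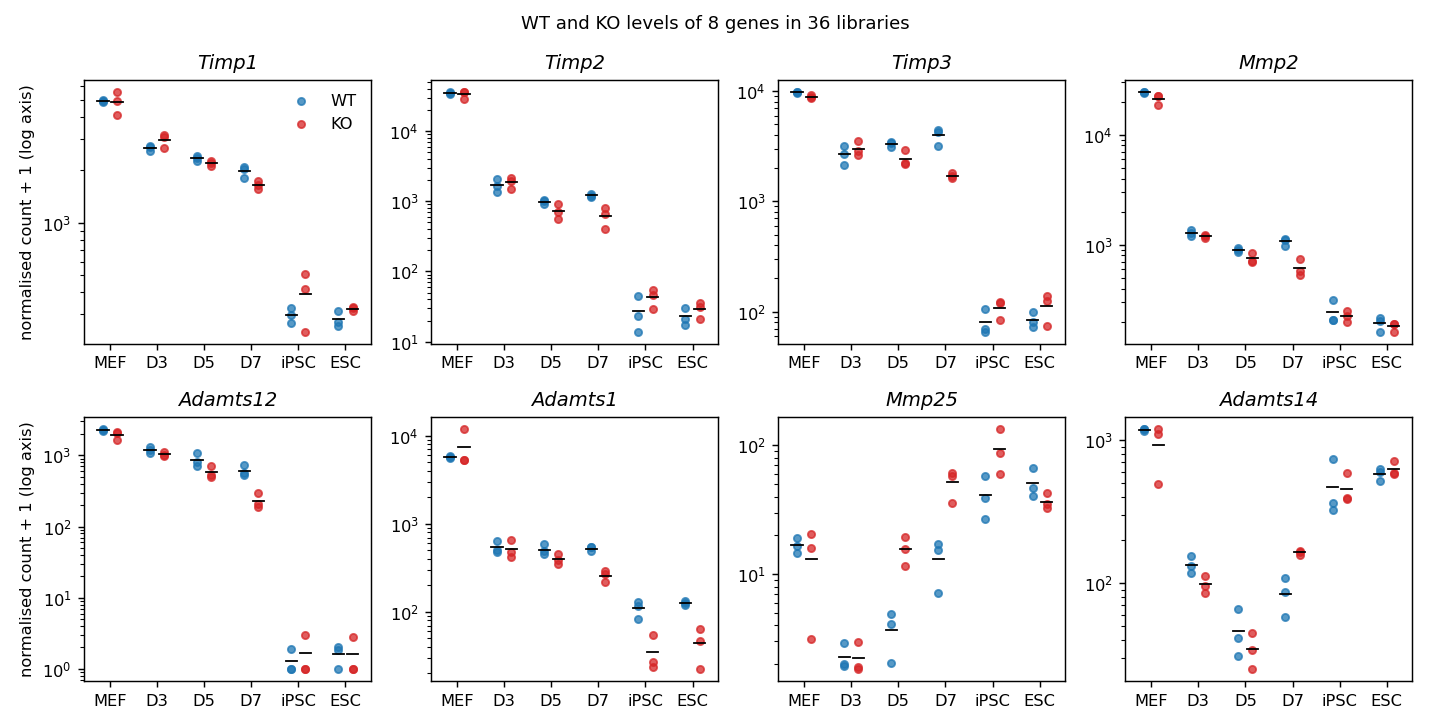
Normalised counts plus 1 (log axis) of Timp1, Timp2, Timp3, Mmp2, Adamts12, Adamts1, Mmp25 and Adamts14 in all 36 libraries by stage, blue for WT and red for KO, with a bar at the mean of 3. At D7 the KO points of Timp3, Timp2, Mmp2, Adamts12 and Adamts1 lie below the WT points and those of Mmp25 and Adamts14 above, and Adamts1 is also lower in KO iPSCs and ESCs.

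In iPSC clones 2 members were called higher in KO and 1 lower (3.95% and 0.557% of genes). Adamts1 had 82.9, 130.03 and 117 in WT and 22.96, 26.04 and 53.5 in KO clones, which did not overlap (log2FC -1.69, SE 0.31, FDR = 3.05e-06). Mmp25 had 38.0, 25.8 and 56.6 in WT and 133, 59.03 and 85.9 in KO clones, also without overlap (log2FC 1.21, SE 0.41, FDR = 0.0229), and its FDR was 0.225 without iPSC KO replicate 1, 0.146 without iPSC WT replicate 2 and 0.0606 without iPSC WT replicate 1. Mmp28, epilysin, had 9.4995, 6.89 and 8.35 in WT and 50.9, 59.03 and 6.06 in KO clones, so 2 KO clones were high and 1 lay below every WT clone (log2FC 2.24, SE 0.46, FDR = 4.58e-05), and 12.03% of its exon bases overlap a gene on the other strand. iPSC KO replicate 1, the highest for Mmp25, also had a primitive endoderm marker sum of 15.4 (TPM scale, 6 of 6 markers), beside 1.72 to 2.55 in the other iPSC libraries, and its part in the result was not tested. The inhibitors were not called, with 297, 267 and 324 against 418, 509 and 238 for Timp1, 43.2, 12.9 and 22.3 against 53.9, 27.8 and 45.5 for Timp2, 64.8, 68.9 and 105 against 118, 82.5 and 121 for Timp3 and 11.2, 6.03 and 12.1 against 27.95, 8.68 and 6.06 for Timp4. WT and KO clones overlapped for all 4, and Timp1 had the lowest FDR of them (log2FC 0.40, SE 0.15, FDR = 0.0536).

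In ESCs 1 member was called higher in KO and 1 lower (0.741% and 0.468% of genes; 34 members had an FDR). Adamts1 was again the lower one, with 127, 117 and 133 in WT and 21.5, 45.8 and 62.8 in KO libraries, which were widely separated (log2FC -1.54, SE 0.30, FDR = 3.35e-05). Adamts3 had 5.02, 3.04 and 11.3 in WT and 17.1, 9.73 and 25.1 in KO libraries, with overlap (log2FC 1.39, SE 0.41, FDR = 0.0137), and its FDR was 0.177 without ESC KO replicate 3, 0.134 without ESC WT replicate 2 and 0.0982 without ESC WT replicate 1. Mmp25 had 39.2, 45.6 and 65.1 in WT and 41.3, 34.1 and 31.4 in KO ESCs (log2FC -0.49, 95% interval -1.31 to 0.32). The KO effects in iPSCs and ESCs did not differ by the call for any member (0.547% and 0.0426% of genes called; 34 members had an FDR), with 2 at an unadjusted p < 0.05 in DESeq2 and 2 in edgeR. For Mmp25 the difference was 1.70 (FDR = 0.113) and for Adamts4 1.07 (FDR = 0.0561), and both were called when MEF KO replicate 3 was left out of the shared fit. Adamts1 was the only member called in the same direction at D7, in iPSCs and in ESCs in this fit, and these 3 comparisons share no libraries.

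Genes around the family were read from fixed lists at D7. Of 17 activators and regulators of metalloproteinases in the table, 0 were called higher and 1 lower, with 1 higher and 8 lower by the FDR alone and a median log2FC of -0.62. Of all genes 3.95% and 4.42% were called higher and lower at D7, and 13.3% and 16.1% passed by the FDR alone. The called gene was Adamtsl3, an ADAMTS-like glycoprotein without protease activity (119 ± 12.4 in WT and 38.2 ± 15.1 in KO; log2FC -1.64, SE 0.32, FDR = 6.05e-06). Of 9 ADAM genes, which encode membrane-bound relatives, Adam10, Adam12 and Adam15 were lower by the FDR alone (log2FC -0.39, -0.9992 and -0.66), and 2 were called higher and 0 lower. The called genes were Adam23 (950.1 ± 159.5 and 2761 ± 219.97; log2FC 1.54, SE 0.15, FDR = 2.99e-23) and Adam19 (1358 ± 153 and 4022 ± 383; log2FC 1.57, SE 0.21, FDR = 3.47e-12). Of 8 proteoglycan and glycoprotein substrates 3 were called lower and 0 higher, with 4 lower and 1 higher by the FDR alone. Versican (Vcan), a substrate of the hyalectanases, went from 6750.2 ± 643 in WT to 2934 ± 439 in KO (log2FC -1.20, SE 0.15, FDR = 6.06e-13) and decorin (Dcn), which is also among the fibroblast markers, from 3291 ± 303 to 1491 ± 307 (log2FC -1.14, SE 0.20, FDR = 1.16e-07).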

How the data were processed

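Messenger RNA libraries were made with a stranded kit (NEB Ultra II) from 36 samples in 12 groups of 3, taken from the sample titles. Per the labels and methods, the authors trimmed adapters with cutadapt, mapped reads to GRCm38.p6 with STAR, assigned them to genes with Rsubread and deposited raw counts. Tool versions, the annotation release and the strand setting of the counting are not given in the sources used here, so genes that overlap on opposite strands cannot be separated. The authors also deposited a normalised signal, the counts divided by a size factor per library, which served as normalised counts here. Their log2 matrix and their comparison tables of log2 fold changes, p-values and FDR were not used.

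Raw counts were fitted with DESeq2 1.42.0 in R 4.3.3 over all 21442 genes and 36 libraries, with 1 factor of 12 levels as in the methods of the study, size factors by the median-ratio method, Wald tests, independent filtering at its default and no shrinkage. Members without an FDR after independent filtering stayed in the count of 41. Differences between KO effects were interaction contrasts. The fit was tested on simulated counts. Total counts ranged from 19224103 to 39610939, which sets the floor of 3 reads, and intervals and floors cover counting error only because reads carry no molecular identifiers. The 36 within-group pairs of replicates differed by 2.87 to 87.6 times the variance of counting (chi-square per degree of freedom), so none was a duplicate. Nothing in the labels says that MEF or reprogramming replicates came from separate embryos, and library preparation batches are not in the labels, so p-values measure the spread between these samples. Levels per length used merged exon lengths of the GRCm38 gene annotation, known for 21390 genes.

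The family, role lists and marker lists were chosen with earlier results of these data known, and the members of the family were then taken by symbol alone. Genes given with every library were Timp1 to Timp4, up to 6 called members per direction and KO comparison, the 5 highest per length in WT MEFs and WT ESCs, the 3 largest calls per direction in ESCs against MEFs and members with an interaction FDR < 0.05, and at most 2 genes per list outside the family. Other members were named after their values were seen. Alternatives were edgeR 4.0.16, TMM size factors, a mean of at least 10 counts, fits of only the groups compared, the FDR alone, a 2-fold limit inside the test, a replicate block and leaving out each library. A fit without MEF KO replicate 3 was added after the data were seen.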

Additional observations from a re-analysis of the deposited data

Results flagged for a closer look

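The KO effect of 5 members differed between D7 and D3 by a test of the difference itself (DESeq2 interaction contrast, FDR < 0.05 over all genes). For Timp3 the log2 difference was -1.38 (SE 0.25, FDR = 4.21e-06), from 0.16 at D3 to -1.21 at D7. For Adamts12 it was -1.21 (SE 0.26, FDR = 1.85e-04), from -0.20 to -1.41. Mmp2 differed by -0.69 (SE 0.18, FDR = 0.00363), from -0.10 to -0.80, and Timp2 by -1.10 (SE 0.34, FDR = 0.0134), from 0.13 to -0.97. Adamts14 went the other way, by 1.44 (SE 0.43, FDR = 0.0114), from -0.46 to 0.97. When each of the 12 libraries of these groups was left out in turn, 12 fits kept the FDR of Timp3, Adamts12 and Mmp2 under 0.05, 11 that of Adamts14 and 10 that of Timp2.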

How the results depend on the processing

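No single-gene result that was followed reversed its direction under any alternative. Those followed were members that passed the FDR in a KO comparison or interaction, and called members of a chosen set in WT steps. With the FDR alone the counts of members were 2 at D5, 13 at D7 and 6 in iPSCs for KO against WT, and 10 for D5 against D3 and 11 for D7 against D5 in WT cells, beside 1, 5, 3, 5 and 7 with the 2-fold limit. With the 2-fold limit inside the test, 0 members remained in the KO comparisons at D5, D7, iPSC and ESC, in D5 against D3, in D7 against D5 and in the D7 against D3 interaction, because that test asks for a change significantly beyond 2-fold. Fits of only the groups compared gave 0 members at D5, 1 in iPSCs (Adamts1) and 1 in ESCs (Adamts1). In these fits Mmp25 at D5 (log2FC 2.45) and Adamts3 in ESCs (log2FC 1.40) were given no FDR. The FDR was 0.0907 for Mmp28 and 0.104 for Mmp25 in iPSCs and 0.212 for Adamts20 at D7, and the cause was not tested. Adamts1 at D7 kept its FDR and lost the 2-fold side with TMM (log2FC -0.99), edgeR (-0.99) and only the groups compared (-0.99). Timp3, Adamts12 and Mmp25 at D7 held under every alternative except the limit inside the test, and edgeR called 7 members at D7. The fit without MEF KO replicate 3 gave 7 members at D7, and 2 (Mmp25 and Adamts4) in place of 0 for the iPSC against ESC interaction. Leaving out 1 library gave 0 to 0 members in MEFs, 0 to 1 at D3, 0 to 2 at D5, 4 to 9 at D7, 2 to 6 in iPSCs and 1 to 2 in ESCs for KO against WT. For D7 the 9 arose without D7 WT replicate 2 or D7 KO replicate 1, for iPSCs the 6 without KO replicate 3 and 5 without WT replicate 1, and for D5 the 0 without WT replicate 3 and the 2 without KO replicate 1. In WT cells the ranges were 34 to 35 for D3 against MEFs, 4 to 6 for D5 against D3, 3 to 7 for D7 against D5 (3 without D7 replicate 2, 4 without D5 replicate 3), 32 to 33 for iPSCs against D7, 0 to 0 for ESCs against iPSCs and 35 to 37 for ESCs against MEFs. The interactions gave 3 to 5 (D7 against D3) and 0 to 2 (iPSC against ESC, with 2 without iPSC WT replicate 3 or iPSC KO replicate 2).

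WT and KO samples of equal replicate number deviated together by correlations of -0.037 to 0.024 in MEFs, 0.075 to 0.287 at D3, 0.059 to 0.167 at D5, 0.084 to 0.230 at D7, -0.120 to 0.224 in iPSCs and -0.024 to 0.010 in ESCs. No stage had every pair over 0.1, so the numbers were not taken as pairs. With the replicate block the count at D7 was 8 in place of 5, that of the iPSC against ESC interaction 1 (Adamts4) in place of 0, and the FDR of Mmp25 in iPSCs 0.0785. Over the values of single genes and alternatives, 792 kept direction and side of the threshold and 109 kept only the direction. Members of few reads, such as Mmp1a, Mmp20, Adamts16, Adamts18 and Timp4, had WT levels near the floor of 3 reads at several stages. Differences between such stages are uncertain at this depth. Steps to or from a higher level were called for some of these members, such as Mmp20 from D3 to D5.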
